A study of Arabidopsis thaliana with 6 samples.

Results

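The genes described here are the nucleolar and rRNA processing proteins of *Arabidopsis thaliana*, in *mdf-1* and wild-type (WT) seedlings. They are the protein-coding genes whose deposited description contains the word nucleolar, rRNA-processing, rRNA processing or ribosome biogenesis and does not contain the words ribosomal protein. The rule finds 44 of the 27628 protein-coding genes in the table, which lists 32998 genes in all. Of these 44, 30 carry the word nucleolar, 8 carry ribosome biogenesis, 5 carry rRNA processing and 2 carry rRNA-processing. No measured value entered the rule. 38 of the 44 had enough reads to be tested.

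The study asked how the loss of MDF, a splicing factor of the spliceosome related to human SART1, changes the transcriptome. *mdf-1* carries a T-DNA insertion in MDF in the Col-0 background, and a single insertion line was sequenced. RNA came from complete seedlings of 12 days, grown at 22 °C through 16 h of light and 18 °C through 8 h of darkness, on MS agar with 1% sucrose. There were 3 biological replicates of WT and 3 of *mdf-1*, and the labels name no further treatment.

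Library totals ran from 44738352 to 45418026 counts in *mdf-1* and from 47175914 to 50088386 in WT. The whole-gene count of MDF (AT5G16780, chromosome 5, 5515707 to 5522261) was 3780 ± 99.9 in *mdf-1* and 3034 ± 76.6 in WT (mean ± SD of normalized counts, n = 3 each). It was called higher in *mdf-1* (log2 fold change 0.32, edgeR adjusted p = 5.86e-04), so this count does not show the insertion. By RT-qPCR the paper found *mdf-1* to express MDF upstream of the insertion but not downstream of it. Markers of the labelled tissue were present: the summed FPKM (counts scaled to gene length and library depth) of 5 photosynthesis genes lay between 21683 and 30758 in every library. The summed FPKM of 9 root markers was 29.6 to 33.1 in *mdf-1* and 67.9 to 72.7 in WT, and 8 of them were lower in *mdf-1*. For 10 markers of dividing cells the sums were 93.2 to 109 and 118 to 125, and 8 were lower in *mdf-1*. The shoot meristem marker STM rose, while CLV3 and WUS were near 0 and were not tested. In whole seedlings fewer cells of a type and less RNA per cell cannot be told apart, and the part of these marker differences in the results below was not tested.

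Ribosomes are built in the nucleolus, where RNA polymerase I copies the rRNA genes into a long precursor. Small nucleolar ribonucleoproteins (snoRNPs) guide its modification, the small-subunit processome folds and cleaves the part that becomes the small subunit, and a series of assembly factors and GTPases matures the large subunit before export. These genes are active in growing tissue, and in plants their loss often disturbs leaf shape, root growth and gametophyte development.

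The nucleolar and rRNA processing genes did not move in a common direction in *mdf-1*. Of the 38 tested, 10 were higher, 12 were lower and 16 did not pass the test (edgeR quasi-likelihood test, Benjamini-Hochberg adjusted p below 0.05 over 22397 genes). Over all tested genes 33.5% were called higher and 33.9% lower, 67.4% in all, against 26.3%, 31.6% and 57.9% of the members. Their median log2 fold change was 0.02, with quartiles of −0.29 and 0.23, and over all genes the median was 0.01 with quartiles of −0.51 and 0.41. In 26 of the 38 genes (68.4%) the 3 *mdf-1* values and the 3 WT values did not overlap, against 73.2% of all tested genes. In 13 all *mdf-1* values were above WT and in 13 all were below, against 36.3% and 37% of all tested genes. 30 of the 38 (78.9%) differed by less than 1.5-fold, against 60.4% of all tested genes. Scaled on total counts instead of by TMM (a scaling on the genes that differ least), the split was 6 higher and 17 lower. That scaling moved the median of all genes to −0.14 and that of the members to −0.13.

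**Figure D1:**
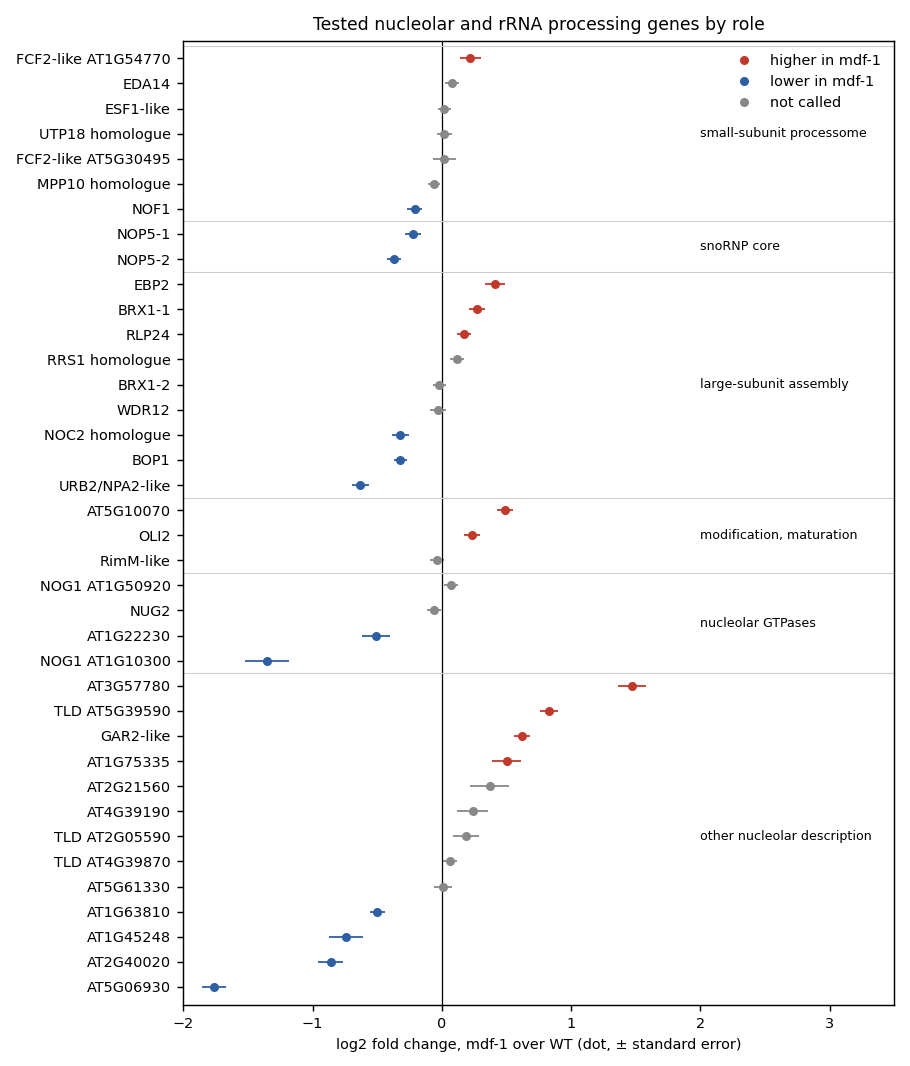
Log2 fold change of each of the 38 tested genes, *mdf-1* over WT, with dots for the estimate and lines for its standard error (n = 3 libraries per group), grouped by role and coloured by the edgeR call. Dots of the processome, snoRNP, large-subunit and modification groups lie between −0.63 and 0.49, and the last group spans −1.76 to 1.47.

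The description fits the name of the list unevenly. For 29 genes the description or symbol names a factor of ribosome synthesis, and 24 of these were tested: 6 were higher, 8 lower and 10 not called, with a median of 0.00 and a range of −1.35 to 0.49. Of the 24, 22 differed by less than 1.5-fold. Most of the remaining tested genes are in the list for the word nucleolar alone, such as TLD-domain proteins and AT1G63810. Their descriptions do not settle whether they act in ribosome synthesis. The exceptions are AT5G61330, described only as related to rRNA processing proteins, and a homologue of RimM, a bacterial factor for maturation of the small subunit. The summed FPKM of the 29 synthesis factors was 653 to 667 in the *mdf-1* libraries and 632 to 677 in WT, so these ranges overlapped.

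To place the genes beside the regulatory sequence in front of them, the 250 bases before each annotated start were searched for motifs described in plant genes for ribosome components. These were the telobox, AAACCCTA, and site II, TGGGCC or TGGGCT, on both strands, with overlapping matches counted separately. Site II was found in front of 19 of the 44 genes (43.2%), against 19.2% of all protein-coding genes with a window. The telobox was found in front of 6 (13.6%), against 4.47%, and 5 genes (11.4%) held both, against 1.36%. For comparison, 67.5% of the tested cytosolic ribosomal protein genes held site II and 20.1% the telobox. A match is a string of letters and not a measured binding site. The windows of many members overlap a neighbouring gene. That of TLD AT4G39870 overlaps a tRNA gene, and its only site II match, 106 bases before the start, was counted all the same. AT5G36722 and AT5G36810, whose windows have the same sequence, were counted separately.

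The last 130 bases before the start are printed for 6 of these genes because, with like motifs, some rose, some fell and some were not called. They are read 5′ to 3′ on the strand of the gene from TAIR10.1 (RefSeq), with telobox and site II matches of either strand in capitals.
BOP1, lower in *mdf-1*, minus strand, chr2:16856772-16856901: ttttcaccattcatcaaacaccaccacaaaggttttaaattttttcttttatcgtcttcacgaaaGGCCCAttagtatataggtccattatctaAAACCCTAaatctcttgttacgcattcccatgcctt
NOF1, lower in *mdf-1*, minus strand, chr1:6088382-6088511: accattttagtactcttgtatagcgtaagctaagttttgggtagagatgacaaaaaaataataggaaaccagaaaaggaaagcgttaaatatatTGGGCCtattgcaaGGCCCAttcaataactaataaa
RLP24, higher in *mdf-1*, minus strand, chr2:18502563-18502692: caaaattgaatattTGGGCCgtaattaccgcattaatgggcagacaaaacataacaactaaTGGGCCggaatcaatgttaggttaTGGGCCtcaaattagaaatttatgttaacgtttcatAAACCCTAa
OLI2, higher in *mdf-1*, minus strand, chr5:22649518-22649647: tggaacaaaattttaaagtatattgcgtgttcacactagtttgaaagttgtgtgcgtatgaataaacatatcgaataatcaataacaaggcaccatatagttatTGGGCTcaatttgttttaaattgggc
NUG2, not called, plus strand, chr1:19737275-19737404: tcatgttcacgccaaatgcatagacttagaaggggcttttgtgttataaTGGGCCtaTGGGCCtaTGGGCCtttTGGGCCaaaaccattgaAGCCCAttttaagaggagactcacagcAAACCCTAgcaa
WDR12, not called, minus strand, chr5:5062145-5062274: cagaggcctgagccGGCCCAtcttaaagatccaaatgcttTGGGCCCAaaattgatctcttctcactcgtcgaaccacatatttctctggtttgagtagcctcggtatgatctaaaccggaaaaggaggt

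The telobox begins 9 bases before the start of RLP24, 12 before that of NUG2 and 36 before that of BOP1. Genes with and without a motif were found on both sides of 0. Of the 16 tested members with site II, 4 were higher and 7 lower, with a median log2 fold change of −0.06. Among the 22 without it, 6 were higher and 5 lower, with a median of 0.07. Over all tested protein-coding genes the medians were 0.12 with site II and −0.04 without, the opposite order. Of 4565 such genes with site II, 1904 were higher and 1172 lower. Of 16582 without it, 5256 were higher and 6137 lower. The quartiles of the members overlapped, at −0.33 to 0.09 with site II and −0.02 to 0.34 without. Whether members with and without site II differ was not tested. Of the 5 tested members with a telobox, 1 was higher and 2 were lower. Of 752 tested protein-coding genes with a telobox, 266 were higher and 220 lower.

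The genes of the list placed in the small-subunit processome by symbol and description changed little. The processome is the large complex that assembles on the nascent precursor with the U3 snoRNA. Of 7 tested genes of the group, 1 was higher, 1 was lower and 5 were not called, with a median log2 fold change of 0.02 and a range of −0.21 to 0.22. The shares were 14.3% higher and 14.3% lower, beside 33.5% and 33.9% of all tested genes. Processome factors outside this group are not covered by these values. Among the 36 further genes described below, TOZ was lower (−0.61, edgeR adjusted p = 9.69e-05). There the U3 snoRNP-associated gene YAO was higher (0.20, edgeR adjusted p = 0.0108), and SWA1 was not called (−0.04). With total counts YAO differed by 0.06 and was not called. NOF1 (AT1G17690, chromosome 1, 6082722 to 6088381), a nucleolar protein that acts on rRNA expression in Arabidopsis, had normalized counts of 1515, 1518 and 1450 in *mdf-1* and 1704, 1834 and 1632 in WT. Every *mdf-1* value lay below every WT value, and the log2 fold change was −0.21 (SE 0.06, edgeR adjusted p = 0.0153). Without WT replicate 2 the adjusted p was 0.0582.

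The homologue of MPP10, a yeast subunit of the U3 complex, had 1574, 1625 and 1594 normalized counts in *mdf-1* and 1641, 1705 and 1642 in WT. Although the groups did not overlap, they differed by only −0.06 on the log2 scale (edgeR adjusted p = 0.324). EDA14, the homologue of yeast UTP11, differed by 0.08 (adjusted p = 0.253), and the homologues of UTP18 and ESF1 by 0.02 each (adjusted p = 0.804 and 0.77). None of these was called.

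FCF2 in yeast is needed for the early cleavages of the precursor, and Arabidopsis has a pair of FCF2-like genes whose coding sequences were 92.1% identical. AT1G54770 had 900, 856 and 818 normalized counts in *mdf-1* and 719, 810 and 678 in WT. The groups did not overlap, and the log2 fold change was 0.22 (SE 0.082, edgeR adjusted p = 0.0396). This call was lost in DESeq2 (adjusted p = 0.0567), without *mdf-1* replicate 1 (0.0991) or 2 (0.0765) and without WT replicate 1 (0.117) or 3 (0.147). AT5G30495, with 511, 436 and 455 against 450, 456 and 473, overlapped between the groups and was not called. Only 1.73% of the 50-base words of the pair were shared.

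Both tested NOP5 genes fell, where 33.9% of all tested genes were called lower. NOP5 (NOP58 in yeast) is a core protein of the box C/D snoRNPs, which guide the methylation of rRNA riboses. NOP5-2 (AT3G05060) had 3890, 3718 and 3767 normalized counts in *mdf-1* and 4951, 5133 and 4661 in WT. The groups were clearly apart, at a level 1.3-fold lower in *mdf-1* (log2 fold change −0.37, SE 0.054, edgeR adjusted p = 4.23e-04).

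NOP5-1 (AT5G27120) had 3413, 3371 and 3296 in *mdf-1* and 3959, 4177 and 3617 in WT. Its groups did not overlap either, the log2 fold change was −0.22 (SE 0.062, edgeR adjusted p = 0.0126), and without WT replicate 2 the adjusted p was 0.0506. The coding sequences of the pair were 82.5% identical but shared no 50-base word. A further copy, NOP5-3 (AT5G27140), had 0 counts in all 6 libraries, which allows up to 6.71e-06% of a library in the least deeply sequenced one. Its coding sequence shared 0.708% of the 50-base words of NOP5-1.

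Fibrillarin, the methyltransferase of the same box C/D particles, was lower as well. It is not in the list of 44 because its description lacks the words. FIB2 had 2450, 2679 and 2818 normalized counts in *mdf-1* and 4006, 4445 and 3904 in WT (log2 fold change −0.64, edgeR adjusted p = 1.17e-04), and FIB1 fell by 0.27 on the log2 scale (adjusted p = 0.0094). CBF5, the pseudouridine synthase of the box H/ACA particles, had 5420 ± 145 in *mdf-1* and 6840 ± 276 in WT (± SD over 3 libraries each), with a log2 fold change of −0.34 (adjusted p = 7.17e-04).

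Large-subunit assembly factors moved both ways. Of 9 tested, 3 were higher, 3 lower and 3 not called, with a median of −0.02 and a range of −0.63 to 0.41. The shares, 33.3% higher and 33.3% lower, were close to the 33.5% and 33.9% of all tested genes. Within the PeBoW complex, in which BOP1, PES and WDR12 act together on the large-subunit precursor, BOP1 fell. BOP1 (AT2G40360) had 4757, 4732 and 4991 normalized counts in *mdf-1* and 6098, 6228 and 5765 in WT. All 3 *mdf-1* values were below the WT values, with a log2 fold change of −0.32 (SE 0.054, edgeR adjusted p = 9.10e-04).

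WDR12 had 1702, 1653 and 1766 in *mdf-1* and 1714, 1871 and 1657 in WT. These overlapped, and WDR12 was not called (log2 fold change −0.03, SE 0.062, adjusted p = 0.654). PES, which the rule does not include, had 3634 ± 21.2 in *mdf-1* and 4246 ± 144 in WT and was lower by −0.22 on the log2 scale (adjusted p = 0.00351). Whether the members of the complex differ in their response was not tested.

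The URB2/NPA2-like gene (AT4G30150), whose yeast counterpart acts early in large-subunit assembly, had the largest fall among the assembly factors. It had 868, 882 and 989 normalized counts in *mdf-1* and 1407, 1454 and 1386 in WT. The groups were far apart, at a level 1.55-fold lower (log2 fold change −0.63, SE 0.067, edgeR adjusted p = 7.68e-05). With 6468 exonic bases it is also the longest gene of the list. The homologue of NOC2, a yeast factor for intranuclear transport of the large subunit, had 1030, 1108 and 1161 in *mdf-1* and 1413, 1353 and 1340 in WT, without overlap, and its log2 fold change was −0.32 (adjusted p = 0.00227).

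EBP2 (AT3G22660), a nucleolar factor for large-subunit assembly, rose most in this group. Its normalized counts were 2279, 2316 and 1959 in *mdf-1* and 1651, 1727 and 1563 in WT. *mdf-1* replicate 3 lay closest to WT but above all WT values, and the level was 1.33-fold higher (log2 fold change 0.41, SE 0.076, edgeR adjusted p = 0.00166). The homologue of RRS1, which brings the 5S ribonucleoprotein into the large subunit in yeast, differed by 0.12 (SE 0.054, adjusted p = 0.0719) and was not called.

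BRX1 is needed for processing of the large-subunit rRNA, and its pair of Arabidopsis genes gave different values. BRX1-1 (AT3G15460) had 722, 720 and 713 normalized counts in *mdf-1* and 597, 608 and 578 in WT. The values were tight and apart, with a log2 fold change of 0.27 (SE 0.063, edgeR adjusted p = 0.00478). With total counts the difference was 0.13 and was not called (adjusted p = 0.107). BRX1-2 (AT1G52930), the more highly counted of the pair, had 1670, 1664 and 1696 against 1668, 1770 and 1650, and its log2 fold change was −0.02 (SE 0.052, adjusted p = 0.792). The groups of BRX1-2 overlapped. The coding sequences were 84.4% identical with no shared 50-base word, and the difference between their responses was not tested.

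RLP24 (AT2G44860), which holds a place on the pre-ribosome that a ribosomal protein takes over later, had the highest length-scaled level of the 44 genes. Its FPKM was 94.3 ± 2.23 in *mdf-1* and 83.9 ± 3.65 in WT (± SD over 3 libraries each). The normalized counts were 3803, 3925 and 3688 in *mdf-1* and 3396, 3510 and 3217 in WT. The groups did not overlap, and the log2 fold change was 0.17 (SE 0.054, edgeR adjusted p = 0.0202). The adjusted p passed 0.05 without WT replicate 1 (0.0615), WT replicate 3 (0.096) or *mdf-1* replicate 2 (0.0593), and with total counts the difference was 0.03.

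**Figure D2:**
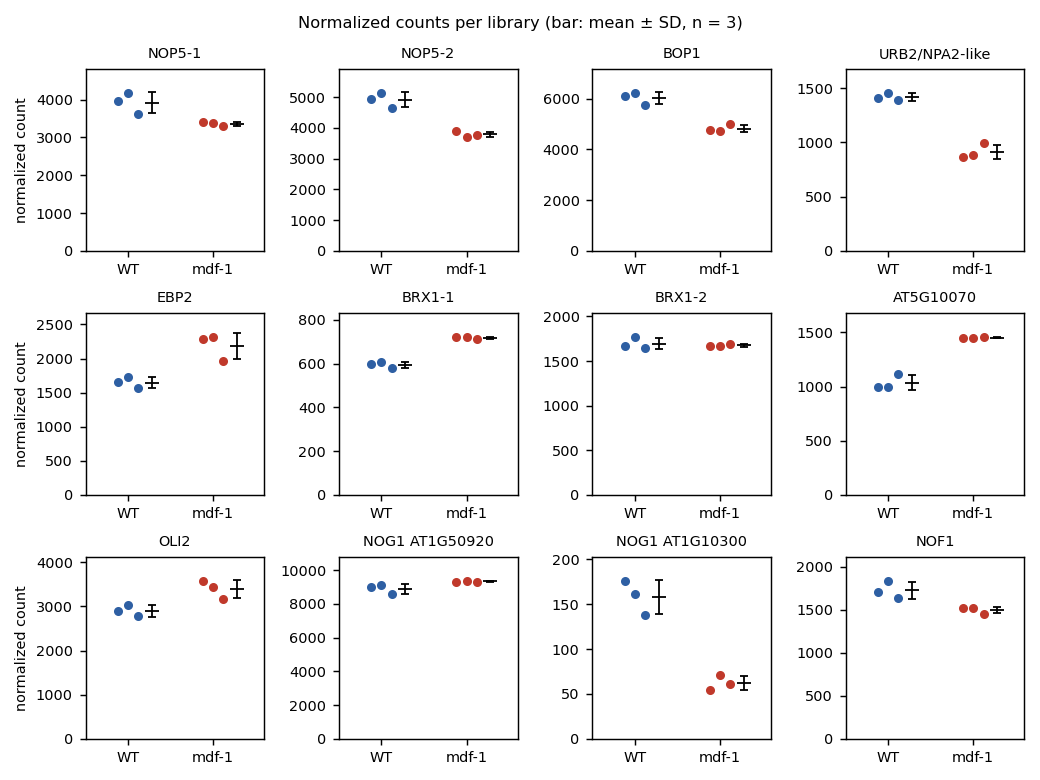
Normalized counts per library for 12 genes, each panel with its own axis from 0, WT on the left and *mdf-1* on the right, with bars for mean ± SD (n = 3). Both NOP5 genes and BOP1 sit lower in *mdf-1*, EBP2 and BRX1-1 sit higher, and BRX1-2 overlaps.

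Of the genes for modification of rRNA or late maturation, 3 were tested and 2 rose, where 33.5% of all tested genes were called higher. OLI2 (AT5G55920), a homologue of the rRNA methyltransferase NOP2 that affects cell number in leaves, had 3578, 3439 and 3173 normalized counts in *mdf-1* and 2889, 3043 and 2778 in WT. Each *mdf-1* value was above each WT value, with a log2 fold change of 0.23 (SE 0.062, edgeR adjusted p = 0.0118). Without WT replicate 3 the adjusted p was 0.057, and with total counts the difference was 0.08 (adjusted p = 0.238).

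AT5G10070, described as a probable ribosome biogenesis protein, had 1451, 1445 and 1458 normalized counts in *mdf-1* and 998, 998 and 1113 in WT. The *mdf-1* libraries were almost equal and all above WT, at a level 1.4-fold higher (log2 fold change 0.49, SE 0.061, edgeR adjusted p = 2.02e-04). The RimM-like gene (AT5G46420) overlapped between the groups (log2 fold change −0.04, adjusted p = 0.554). The NEP1-like gene AT1G63060 and the NOP2-like gene AT4G17590 had 0 counts in all 6 libraries.

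Nucleolar GTPases work as checkpoints on the maturing large subunit. Of 4 tested, 2 were lower and 2 were not called, with a median of −0.29, where 33.9% of all tested genes were called lower. The 2 that fell were the least counted of the 4. The NOG1 gene AT1G10300 had 54.9, 70.6 and 60.6 normalized counts in *mdf-1* and 176, 161 and 138 in WT. Its groups were well apart, at a level 2.55-fold lower (log2 fold change −1.35, SE 0.17, edgeR adjusted p = 2.21e-04).

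The other NOG1 gene, AT1G50920, had 9313, 9355 and 9320 in *mdf-1* and 8994, 9113 and 8554 in WT. Although the groups did not overlap, the difference of 0.07 (SE 0.052, adjusted p = 0.259) was not called, and with total counts it was −0.07. By FPKM this copy stood at 78.9 ± 0.451 in *mdf-1* and 75.4 ± 2.49 in WT, and AT1G10300 at 0.602 and 1.55, so nearly all NOG1 transcript came from the copy that was not called. The coding sequences were 80.8% identical and shared no 50-base word.

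AT1G22230, a further nucleolar GTP-binding protein, had 178, 161 and 163 normalized counts in *mdf-1* and 242, 244 and 226 in WT. The groups did not overlap, and the log2 fold change was −0.51 (SE 0.11, edgeR adjusted p = 0.00411). NUG2 (AT1G52980), a GTPase of the pre-60S particle, had 4835, 5198 and 4694 against 5215, 5196 and 4991. Its groups overlapped, and it was not called (log2 fold change −0.06, SE 0.056, adjusted p = 0.333).

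The largest changes in the list belonged to genes whose description names no particular factor of ribosome synthesis. These are described as nucleolar, apart from AT5G61330, which is described as related to rRNA processing proteins. Of 13 tested, 4 were higher, 4 lower and 5 not called, and 6 differed by more than 1.5-fold. The shares were 30.8% higher and 30.8% lower, beside 33.5% and 33.9% of all tested genes. Of these 13, 53.8% differed by less than 1.5-fold, beside 60.4% of all tested genes. The nucleolar-like gene AT3G57780 had 1932, 1800 and 1668 normalized counts in *mdf-1* and 589, 760 and 598 in WT. It rose 2.78-fold (log2 fold change 1.47, SE 0.11, edgeR adjusted p = 1.61e-05), with all *mdf-1* libraries far above WT.

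AT5G06930, with a like description, went the other way. It had 160, 171 and 158 in *mdf-1* and 570, 528 and 566 in WT. That is a 3.4-fold lower level without overlap (log2 fold change −1.76, SE 0.092, edgeR adjusted p = 3.71e-06).

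The TLD-domain gene AT5G39590 had 8394, 7800 and 7299 normalized counts in *mdf-1* and 4532, 4531 and 4163 in WT. TLD domains are known from animal proteins that protect against oxidative damage. The gene rose 1.78-fold (log2 fold change 0.83, SE 0.068, edgeR adjusted p = 2.29e-05) and, at an FPKM of 85.5 in *mdf-1*, was among the most abundant of the 44. It weighs on the summed level of the list: the summed FPKM of all 44 genes was 893 to 918 in *mdf-1* and 825 to 873 in WT, and without this gene 813 to 826 and 780 to 823. The first ranges did not overlap and the second did. The other TLD-domain genes, AT2G05590 and AT4G39870, were not called, with log2 fold changes of 0.19 (adjusted p = 0.123) and 0.06 (adjusted p = 0.389).

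The GAR2-like gene AT2G42320, named after a fission yeast protein, had 2777, 2780 and 2580 normalized counts in *mdf-1* and 1709, 1857 and 1711 in WT, and rose 1.54-fold (log2 fold change 0.62, SE 0.059, edgeR adjusted p = 4.36e-05). AT1G75335 rose by 0.50 on the log2 scale (SE 0.11, adjusted p = 0.00316), from 231, 206 and 217 in WT to 309, 325 and 290 in *mdf-1*. Neither gene overlapped between the groups.

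Both tested genes described as nucleolar histone methyltransferase-related proteins fell, where 33.9% of all tested genes were called lower. AT2G40020 had 436, 516 and 518 normalized counts in *mdf-1* and 890, 816 and 958 in WT (log2 fold change −0.86, SE 0.095, edgeR adjusted p = 9.97e-05). AT1G45248 had 149, 174 and 136 against 252, 244 and 267 (log2 fold change −0.74, SE 0.13, adjusted p = 0.0012). All *mdf-1* values of each gene lay below all WT values. AT1G63810, described as a nucleolar protein, also fell without overlap, from 1820 ± 78.5 in WT to 1290 ± 50.4 in *mdf-1* (SD, n = 3 each; log2 fold change −0.50, adjusted p = 1.30e-04). AT2G21560, AT4G39190 and AT5G61330 were not called, with log2 fold changes of 0.37 (adjusted p = 0.0571), 0.24 (0.111) and 0.01 (0.883). DESeq2 called AT2G21560 as higher (adjusted p = 0.0369).

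Besides the 3 genes already named without counts, 3 members were too low to test. AT5G36722 and AT5G36810 had 0 counts in all 6 libraries. Their coding sequences are identical, so reads of one could not have been told from reads of the other. AT2G27750 had 1 count in *mdf-1* replicate 1 and 0 in the other 5 libraries.

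Members differed in length, and fold changes in these libraries moved with gene length. When the tested protein-coding genes were split by length into 5 classes of equal size, their median log2 fold change was 0.20 in the shortest class (27 to 1134 exonic bases) and −0.26 in the longest (2550 to 16614). Of the 5 tested members in the shortest class 2 were higher and 1 lower, where 43.6% of all genes of the class were higher and 25.2% lower. Of the 10 in the next class (1135 to 1552) 4 were higher and 1 lower, beside 45% and 25.4% of all genes. Of the 9 in the longest class, 2 were higher and 5 lower, with a median of −0.21, beside 16.5% and 55.3% of all genes, so the share of lower members there was close to that of the class. The median exonic length was 1956 bases in the tested members and 1749 in all tested protein-coding genes. The part of length in the calls was not tested.

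**Figure D3:**
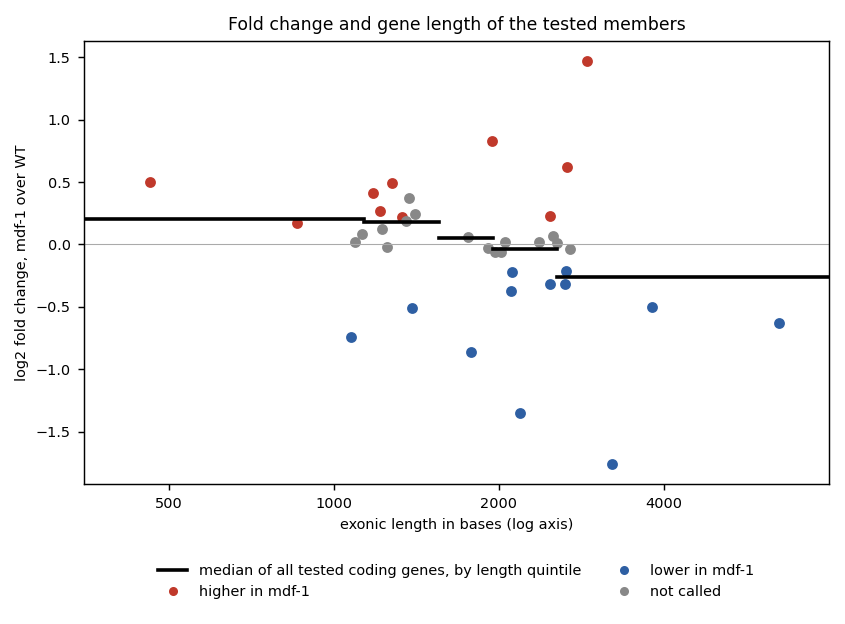
Log2 fold change of the 38 tested genes, *mdf-1* over WT, against exonic length in bases (log axis), with black lines for the median of all tested protein-coding genes in each of 5 length classes. The medians fall from 0.20 to −0.26, and the red dots of higher genes lie between 462 and 2893 bases, with the 3 longest genes all lower.

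In 9 members the gene overlaps a gene on the opposite strand, and how strand was treated in counting is not given in the sources used here, so reads of the pair may not be told apart. These are TLD AT5G39590, RLP24, the RRS1 homologue, GAR2-like, ESF1-like, the NOC2 homologue, BRX1-1, AT5G06930 and AT1G75335. The RimM-like gene overlaps a gene on its own strand.

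Ribosome synthesis needs many genes outside the 44, and a list of 36 of them was examined. All were tested: 11 were higher, 16 lower and 9 not called, with a median log2 fold change of −0.12, a lowest value of −1.61 and a highest of 3.40. The shares were 30.6% higher and 44.4% lower, beside 33.5% and 33.9% of all tested genes. The median length was 2263 bases, beside 1749 in all tested protein-coding genes, and the part of length was not tested. With total counts the split was 4 higher and 21 lower. The lowest was MDN1, the giant AAA ATPase that strips factors from the pre-60S particle, with a normalized count of 3424 ± 27.9 in WT against 1123 ± 72.8 in *mdf-1* (SD, n = 3 each; edgeR adjusted p = 1.46e-06), and it is also the longest tested gene at 16614 bases. RRP5, which acts in the assembly of both subunits in yeast, fell by 1.19 on the log2 scale (adjusted p = 3.10e-06) and has 6112 exonic bases. NRPA1, the largest subunit of RNA polymerase I, fell by 0.88 (adjusted p = 1.56e-05), within 5 tested polymerase I genes of which 1 was higher and 2 lower. With 5649 exonic bases NRPA1 lies, like MDN1 and RRP5, in the longest length class, where 55.3% of all genes were lower.

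At the other end stood 1 of the nucleolin genes. NUC2 (AT3G18610) had 911, 722 and 781 normalized counts in *mdf-1* and 65, 92.5 and 71.5 in WT, with no overlap and a level 10.5-fold higher (log2 fold change 3.40, SE 0.15, edgeR adjusted p = 2.17e-06). Nucleolin binds rRNA gene chromatin and nascent precursor. NUC1 (AT1G48920), the main nucleolin gene, had 18394, 17282 and 18912 against 16389, 16782 and 15500, without overlap, with a log2 fold change of 0.17 (SE 0.065, adjusted p = 0.0491). With total counts that difference was 0.02, and with 1 library left out the adjusted p reached 0.189. The coding sequences of the pair were 71.8% identical with no shared 50-base word.

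The GTPase pair LSG1-1 and LSG1-2, which acts on the cytoplasmic large subunit, was higher, by 0.78 (adjusted p = 0.00139) and 0.22 (adjusted p = 0.0147) on the log2 scale. The call of LSG1-2 was lost with 1 library left out (adjusted p up to 0.057) and with total counts (0.08, adjusted p = 0.322). ANAC082, a transcription factor of the nucleolar stress response in Arabidopsis, was lower by −0.25 (adjusted p = 0.00869). Of 5 tested genes described as exosome subunits, 3 were higher and 1 was lower, beside 33.5% and 33.9% of all tested genes. With total counts 2 were higher and 1 was lower. Exosome-related genes of the list of 36 that lack this description did not rise. RRP44A (−0.28, edgeR adjusted p = 0.00286) and RRP6L1 (−0.23, edgeR adjusted p = 0.00753) were lower, and RRP4 and RRP6L2 were not called.

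**Figure D4:**
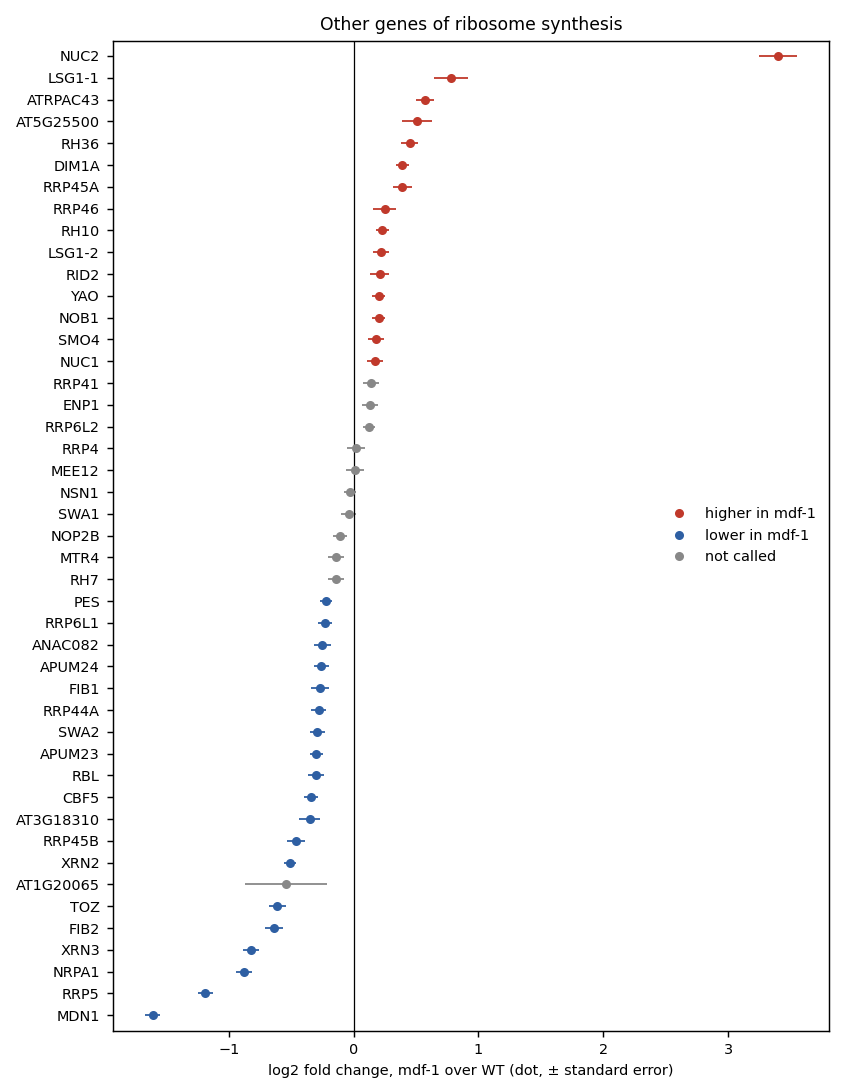
Log2 fold change, *mdf-1* over WT, of the other genes of ribosome synthesis, as dots with lines for the standard error (n = 3 libraries per group). Exosome subunits and genes whose description names RNA polymerase I, among them associated factors, are included. NUC2 stands alone at 3.40, and MDN1 and RRP5 lie lowest at −1.61 and −1.19.

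Beside these stand the cytosolic ribosomal proteins, the products that the members assemble. Of 194 tested, 121 (62.4%) were higher, 15 (7.73%) lower and 58 not called, with a median log2 fold change of 0.21 and quartiles of 0.08 and 0.31. For the 24 tested synthesis factors of the list the median was 0.00 with quartiles of −0.25 and 0.14. With total counts the ribosomal proteins were split into 50 higher and 29 lower, and the 24 synthesis factors into 2 higher and 12 lower. The median length was 943 bases in the ribosomal proteins and 1992 in the synthesis factors, and the shortest length class of all genes had a median of 0.20. Whether the groups differ, and the part of length in it, was not tested.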

How the data were processed

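RNA of 3 WT and 3 *mdf-1* samples, grouped by the genotype in the labels, was prepared with the NEBNext Ultra RNA kit. Poly(A) selection or rRNA depletion, and the treatment of strand and of reads shared by genes in counting, are not given in the sources used here. The submitters' processing notes name fastp, HISAT2, featureCounts and the TAIR10 build. The authors deposited raw counts per gene and, in the same table, FPKM, which equalled the count over gene length times 1 constant per library. The counts entered every test, and FPKM served only to compare levels between genes. 6 further per-sample columns of normalized values and 3 columns of the authors' own comparison (fold changes and p-values) were not used. All rows named a gene.

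Counts were filtered with filterByExpr, scaled with TMM and tested with edgeR 4.0.16 (R 4.3.3, glmQLFit robust, glmQLFTest, genotype only), with Benjamini-Hochberg adjustment over 22397 genes. Each standard error was the absolute log2 fold change over the root of F. The steps were tested on simulated data. There 48 of 81 changes of 0.5 on the log2 scale were called, 56 of 57 of 1 and 62 of 62 of 2. Of 22052 unchanged genes 11 were called. Few genes were changed in the simulation, unlike in these data, so it does not show how the scaling behaves here. Nothing beyond the label biological replicates says how samples were separated, so p-values measure the spread between these samples. Limits drawn from 0 counts (3 counts per library) cover counting error only. Alternatives were DESeq2 1.42.0, other scalings and filters, a replicate block and leaving out each library.

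The members, roles and lists were chosen with earlier results of these data known. Named genes were MDF, up to 5 members per role with the largest change among those called without overlap and with a mean count of at least 100, the 5 with the highest FPKM, genes of the pathway list, and pairs with a shared name; others are named to account for every member. Gene starts came from TAIR10.1, whose coordinates matched the deposited ones for all 44 members. The promoter windows, read from the TAIR10.1 genome, and the printed stretches were chosen after seeing the data.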

Additional observations from a re-analysis of the deposited data

How the results depend on the processing

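No member called in both fits changed direction under any alternative. With total counts 6 members were higher and 17 lower, and the median log2 fold change moved from 0.02 to −0.13. There FCF2-like AT1G54770, RLP24, BRX1-1 and OLI2 were no longer called, and MPP10, BRX1-2, WDR12, NUG2 and RimM-like became called as lower. The median was −0.03 with upper-quartile scaling, 0.00 with at least 10 counts in every library, and 0.00 to 0.03 with 1 library left out. Leaving out 1 library gave 7 to 11 higher and 10 to 12 lower members, with 7 higher without WT replicate 3. DESeq2 gave 10 and 12, with AT2G21560 gained and FCF2-like AT1G54770 lost, and at an adjusted p below 0.01 the counts were 7 and 10. Same-numbered samples did not deviate together (correlations of 0.0443, −0.00349 and 0.0805), so the numbers were not taken as pairs. With the replicate block there were 11 and 12 calls: AT2G21560 was added here too (adjusted p = 0.0108), no other member's call changed, and NUC1 was not called (adjusted p = 0.0778).

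Signs turned only in genes that were not called, in 8 members with total counts, 4 with upper-quartile scaling, 3 with the filter of 10 counts and 0 to 2 with 1 library left out. Among them, with total counts NOG1 AT1G50920 was at −0.07, TLD AT4G39870 at −0.09 and FCF2-like AT5G30495 at −0.12. FCF2-like AT5G30495 was at −0.03 with upper-quartile scaling and −0.04 to 0.08 with 1 library left out (−0.04 without *mdf-1* replicate 1). Without WT replicate 2, BRX1-2 was at 0.01 and WDR12 at 0.02. The causes were not tested. Extending the promoter window by 50 bases past the start, an alternative chosen after seeing the data, raised the telobox share of members to 27.3% (all protein-coding genes 6.21%).

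Depth limits the 6 untested members, for which 0 or 1 count in a library does not show that a gene is silent. The calls of NOF1, NOP5-1, RLP24, OLI2 and FCF2-like AT1G54770, the smallest changes called, were each lost without some single library.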
